A study of Mus musculus with 12 samples.

Results

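Aminoacyl-tRNA synthetases are the enzymes that attach each amino acid to its transfer RNA (tRNA). Their genes were taken from the deposited count table as protein-coding rows whose symbol is a 1-letter amino acid code followed by ars, with or without a final 1 or 2, together with Eprs, Farsa and Farsb. The symbol rule matched 37 of 24934 genes. Lars2, the mitochondrial leucine enzyme, was left out because its reads followed 18S ribosomal RNA across libraries: they ran from 2898 to 208112 per library, and the Pearson correlation of their log2 values with those of Rn18s was 1.00 over the 12 libraries, a description only. The remaining 36 genes comprised 20 called cytosolic here and 16 called mitochondrial, those whose symbol ends in 2. All 36 were among the 13249 genes that passed the filter on low counts.

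The libraries came from BV2 cells, an immortalised line of mouse microglia (the resident immune cells of the brain). The 4 Control libraries are labelled with no agent. The 4 OGD libraries came from cells put through oxygen-glucose deprivation and, per the series' design text, re-oxygenation, a culture model of ischaemic injury. The 4 Acacetin libraries came from cells that, per the same text, went through the same model and were then given acacetin, a plant flavone, at 10 µM. The labels of the Acacetin libraries do not themselves name the deprivation, no vehicle control is described, and all groups are 1 cell line in culture, without the other cells of the brain. No time of deprivation, re-oxygenation or treatment is given in the sources used here. Nothing in the labels ties the 4 libraries of 1 group to separate cultures, so p-values here reflect library-to-library spread, which may be technical.

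The libraries held 16427886 to 32693066 counted reads, and the 36 genes together took 0.306% to 0.453% of them. The 10 myeloid marker genes written for the check of the cell type were each above 1 CPM (reads of a gene scaled to a common library size by TMM, the trimmed mean of M values) on average. Summed, they reached 3995 to 4777 CPM in Control, 3506 to 4944 in OGD and 2949 to 4541 in Acacetin. Of the astrocyte markers, Aqp4 was not in the table and the other 3 summed to at most 0.332 CPM in any library. The 4 neuron, 4 oligodendrocyte and 4 fibroblast markers each had 1 gene that was not in the table (Syt1, Mog and Dcn), and the summed levels of the neuron, oligodendrocyte, endothelial and fibroblast lists were at most 6.26, 2.41, 2.20 and 0.398 CPM. Libraries stood apart in 2 ways. Rn18s took 13.1% of the reads of OGD 2 and 21.3% of those of OGD 3, against 0.137% to 1.86% in the other 10. The log2 level of genes also moved with the GC content of their transcripts by a different amount in each library, from -0.84 per 10 percentage points in Acacetin 3 to 0.53 in Acacetin 1, relative to the mean of all libraries (13215 genes). Results are therefore also given from fits without these libraries or this trend, though not for every gene.

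Cytosol and mitochondria each have their own protein synthesis and, for most amino acids, their own synthetase, and both sets are encoded in the nucleus. Gars and Kars serve both compartments from 1 gene each, Qars has no mitochondrial counterpart because mitochondria make glutaminyl-tRNA from glutamyl-tRNA, and Eprs joins the glutamate and the proline enzyme in 1 protein. In mammals several cytosolic enzymes sit in the multisynthetase complex on the scaffold proteins Aimp1, Aimp2 and Eef1e1. Uncharged tRNA activates the kinase Gcn2, encoded by Eif2ak4, and the transcription factor ATF4, made when eIF2 is phosphorylated, is known to raise many cytosolic synthetase genes through composite C/EBP-ATF sites.

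Promoter sequence was therefore set beside the expression values. RefSeq promoters (build GRCm38.p6, 250 bases before to 50 after the start) were found for 26 of the 36 genes, 13 cytosolic and 13 mitochondrial. The core letters of the composite site, TGATGNAA, searched on both strands so that they also read as TTNCATCA, were present in 5 of the 13 cytosolic promoters and in 0 of the 13 mitochondrial ones. Over the whole promoter table they were present for 4.51% of 27025 genes (3.97% of all 32851 promoters). The cyclic AMP response element TGACGTCA, also searched on both strands, was in 0 of 26, so no match of 1 motif overlapped the other. Over the whole table it was present for 2.03% of genes (1.79% of all promoters). These matches are letters in a window, with no measure of binding. The promoters with the core were those of Aars (2 matches), Gars, Iars, Tars and Yars. The 150 bases before the start are shown for the cytosolic genes Tars (chr15:11399659-11399808, minus strand), Aars (chr8:111033692-111033841, plus strand) and Gars (chr6:55037851-55038000, plus strand), because all hold the core there, in capitals, while Tars and Aars were called higher in OGD than in Control and Gars was not.

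Tars: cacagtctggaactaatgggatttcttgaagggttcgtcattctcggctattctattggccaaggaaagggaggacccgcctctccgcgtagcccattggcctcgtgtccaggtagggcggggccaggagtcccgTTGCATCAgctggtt
Aars: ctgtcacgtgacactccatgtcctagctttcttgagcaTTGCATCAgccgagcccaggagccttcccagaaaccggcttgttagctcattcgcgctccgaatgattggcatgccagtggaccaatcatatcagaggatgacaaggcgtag
Gars: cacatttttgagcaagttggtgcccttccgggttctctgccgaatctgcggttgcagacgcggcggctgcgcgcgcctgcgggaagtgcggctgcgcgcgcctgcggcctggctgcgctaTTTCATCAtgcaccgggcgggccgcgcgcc

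The matches lay at positions -15 to -8 in Tars, -112 to -105 in Aars and -30 to -23 in Gars, where -1 is the base before the start. For Aars, Iars and Yars a match lay after the start, at 10 to 17, 8 to 15 and 4 to 11. These are shown as 30 bases with the core in capitals: Aars at chr8:111033840-111033869, Iars at chr13:49682126-49682155 and Yars at chr4:129189895-129189924, all on the plus strand.

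Aars: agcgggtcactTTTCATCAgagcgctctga
Iars: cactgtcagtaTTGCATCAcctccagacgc
Yars: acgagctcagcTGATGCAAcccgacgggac

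The 3 mitochondrial genes whose fold changes in OGD were largest are shown for contrast: Mars2 (chr1:55237027-55237176, plus strand), Yars2 (chr16:16302815-16302964, plus strand) and Vars2 (chr17:35667593-35667742, minus strand). Neither motif was found in their windows, so they hold no capitals.

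Mars2: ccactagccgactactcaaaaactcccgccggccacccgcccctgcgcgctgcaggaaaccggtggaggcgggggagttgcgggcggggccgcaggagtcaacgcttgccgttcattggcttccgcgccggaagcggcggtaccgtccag
Yars2: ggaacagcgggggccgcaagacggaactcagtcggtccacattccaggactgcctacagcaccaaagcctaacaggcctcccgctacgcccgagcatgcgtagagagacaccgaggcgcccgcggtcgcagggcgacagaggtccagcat
Vars2: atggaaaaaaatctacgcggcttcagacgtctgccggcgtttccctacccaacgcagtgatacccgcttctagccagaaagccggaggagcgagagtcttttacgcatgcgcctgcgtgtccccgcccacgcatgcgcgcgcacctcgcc

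Per gene length, the cytosolic genes stood higher. In the authors' FPKM (fragment counts divided by the length of the gene and the depth of the library), the median over the 20 cytosolic genes was 25.5 in Control, 27.2 in OGD and 33.5 in Acacetin, and that over the 16 mitochondrial genes was 3.00, 2.51 and 3.05. These medians are not read as changes between groups, since FPKM shifted for all genes. In Acacetin against OGD the median log2 fold change of all tested genes was 0.16 on log2(FPKM + 1) and -0.02 on TMM-scaled counts. For the cytosolic genes it was 0.25 and -0.01. The order in Control ran from the seryl-tRNA synthetase Sars at 104 ± 5.60 FPKM (SD, n = 4) through Vars at 72.9 ± 8.19, Gars at 67.7 ± 8.79 and Qars at 56.0 ± 2.11 down to the asparagine enzyme of mitochondria, Nars2, at 0.733 ± 0.133. All of the top 10 ranks were cytosolic, and the highest mitochondrial gene, Tars2 at 16.3 ± 0.724 FPKM, ranked 15. The cytosolic Eprs ranked 32, at 0.985 ± 0.341 FPKM. Its relative length was 20896, inferred here from the ratio of counts to FPKM. It is not a length stated by the authors and need not equal the bases of its exons. Of the 35 pairs of neighbours in this order, 25 had Control libraries that overlapped, among them Hars with Kars (44.7 and 44.5) and Tars with Sars2 (9.18 and 9.16), and 10 did not, among them Sars with Vars.

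In OGD against Control, 10 of the 36 genes (27.8%) passed the test, which is near the 28.8% of all tested genes that did. Of these, 6 were higher in OGD (16.7%, against 16.2% of all genes) and 4 lower (11.1%, against 12.6%), so the number of calls and its split were not a result about these genes. On the cytosolic side the histidine, threonine and alanine enzymes rose and the valine enzyme fell. On the mitochondrial side the methionine, tyrosine and cysteine enzymes rose and the valine, glutamate and isoleucine enzymes fell. The test was edgeR's quasi-likelihood test on the counts, with Benjamini-Hochberg adjustment over all 13249 genes and a threshold of 0.05. The median log2 fold change was 0.02 over the cytosolic and -0.07 over the mitochondrial genes, beside 0.03 over all tested genes. In bulk RNA, a lower level in every cell and fewer cells with the RNA cannot be told apart.

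**Figure D1:**
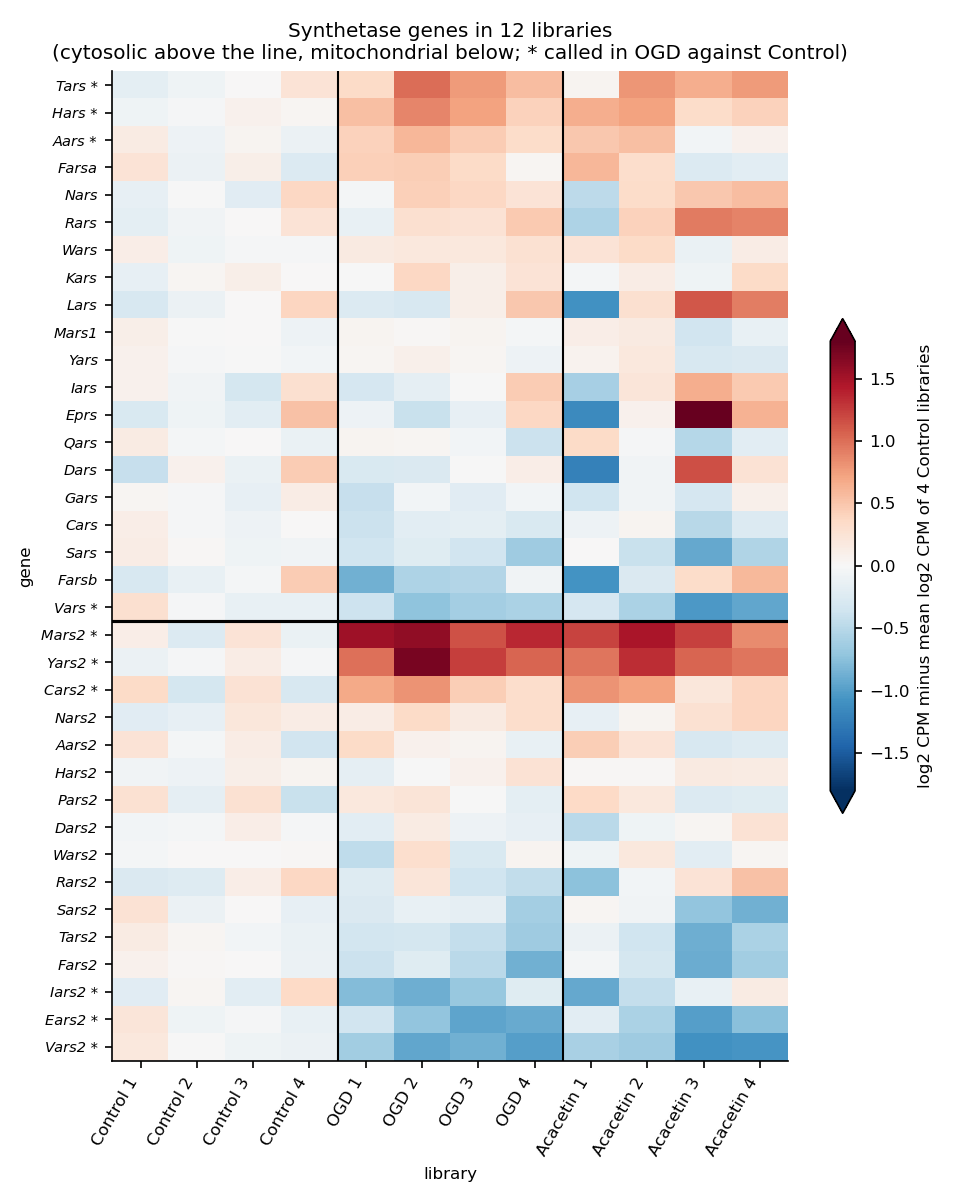
Log2 CPM of each of the 36 synthetase genes (rows) in each of the 12 libraries (columns), minus the mean log2 CPM of the gene in the 4 Control libraries; red is above and blue below that mean, and an asterisk marks the 10 genes called in OGD against Control. Mars2 and Yars2 are red in all 8 OGD and Acacetin libraries, Vars2 and Vars are blue in all 8, and Eprs reaches its extremes in Acacetin 1 and Acacetin 3.

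Mars2, the mitochondrial methionine enzyme, had the largest fold change of the 36. Its level was 10.97, 8.54, 11.98 and 9.26 CPM in Control 1 to 4, 29.1, 30.5, 22.3 and 25.9 in OGD 1 to 4, and 23.4, 27.9, 23.7 and 18.2 in Acacetin 1 to 4. Every OGD and Acacetin library lay above every Control library. The log2 fold change of OGD against Control was 1.41 ± 0.17 (SE), a 2.65-fold level, with an edgeR adjusted p of 0.000136. Methionine starts every mitochondrial protein, and Mtfmt, the enzyme that formylates the methionyl-tRNA for that purpose, also rose, from 20.7 ± 3.66 to 34.5 ± 5.05 CPM (SD, n = 4; log2 fold change 0.74, edgeR adjusted p = 0.00412). The mitochondrial initiation factor genes Mtif2 and Mtif3 were not called (log2 fold changes -0.34 and 0.36, edgeR adjusted p = 0.629 and 0.140). A link between these genes and Mars2 was not tested.

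Yars2, the mitochondrial tyrosine enzyme, moved like Mars2. Its level was 15.96, 16.97, 18.8 and 16.95 CPM in Control, 34.01, 56.1, 40.7 and 35.6 in OGD, and 33.5, 43.2, 35.4 and 33.4 in Acacetin. No OGD or Acacetin library reached down to the Control range, and OGD 2, a library rich in 18S, was the highest of the 12. For OGD against Control the log2 fold change was 1.28 ± 0.16, a 2.42-fold level (edgeR adjusted p = 0.000183), and without OGD 2 and 3 it was 1.03 (edgeR adjusted p = 0.00380).

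Vars2 and Vars, the valine enzymes of the 2 compartments, both fell. Vars2 was at 45.02, 39.2, 37.2 and 36.8 CPM in Control, 25.6, 20.6, 21.7 and 19.8 in OGD, and 26.2, 25.4, 18.5 and 18.9 in Acacetin. The OGD and Acacetin libraries all lay below the lowest Control library. Its log2 fold change in OGD against Control was -0.85 ± 0.15 (edgeR adjusted p = 0.00107). Vars, on chromosome 17 as Vars2 is, was at 584, 473, 435 and 436 CPM in Control, 371, 291, 313 and 321 in OGD, and 387, 322, 234 and 249 in Acacetin. Again, no OGD or Acacetin library reached the Control range, with the smallest gap between Control 3 and Acacetin 1. Its log2 fold change in OGD against Control was -0.57 ± 0.17 (edgeR adjusted p = 0.0238). The call on Vars was lost without OGD 2 and 3 (adjusted p = 0.131), without Control 1 (0.0800), without Control 2 (0.0515) and without OGD 2 (0.0722).

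Hars, the cytosolic histidine enzyme, had the smallest adjusted p of the cytosolic genes. It was at 122, 126, 135 and 131 CPM in Control, 186, 235, 212 and 172 in OGD, and 202, 212, 162 and 172 in Acacetin. All 8 OGD and Acacetin libraries were above the 4 Control libraries, which lay close together. OGD against Control gave a log2 fold change of 0.65 ± 0.13, a 1.57-fold level (edgeR adjusted p = 0.00266). Hars shares 195 exon bases with Hars2 on the opposite strand (7.97% of its exon bases in GENCODE M21), and the strand setting of the authors' counting was not given in the sources used here.

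Tars, the cytosolic threonine enzyme, was at 55.7, 59.4, 63.4 and 74.4 CPM in Control, 79.5, 126, 107 and 92.6 in OGD, and 65.1, 109, 98.95 and 107 in Acacetin. The OGD libraries lay above Control, and the highest were OGD 2 and OGD 3, while Acacetin 1 fell inside the Control range. The log2 fold change of OGD against Control was 0.68 ± 0.18 (edgeR adjusted p = 0.0127). Without OGD 2 and 3 it was 0.45 (adjusted p = 0.183), and on log2 FPKM with limma the call was lost as well (0.47, adjusted p = 0.179, with a pseudocount of 1; 0.51, adjusted p = 0.160, with 0.1).

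Aars, the cytosolic alanine enzyme, was at 330, 280, 308 and 278 CPM in Control, 396, 452, 411 and 376 in OGD, and 417, 434, 288 and 315 in Acacetin. OGD lay above Control, and Acacetin was spread over both ranges. Its log2 fold change in OGD against Control was 0.45 ± 0.15 (edgeR adjusted p = 0.0375). The call was lost without OGD 2 and 3 (adjusted p = 0.131) or without Control 2, Control 3, OGD 1 or OGD 2 alone (0.108, 0.0702, 0.0631 and 0.102). It was also lost with limma on log2 FPKM (adjusted p = 0.193 with a pseudocount of 1 and 0.200 with 0.1), with the trend of each library with gene length removed (0.219), and where a log2 fold change of at least 0.5 was asked for. Exons of Exosc6 cover 14.3% of the exon bases of Aars on the same strand, so reads there cannot be assigned to 1 of them by strand.

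Among the other mitochondrial calls, Ears2, which charges glutamate, was at 22.6, 18.4, 19.00 and 17.7 CPM in Control, 15.3, 11.8, 10.00 and 10.3 in OGD, and 16.9, 12.98, 9.73 and 11.5 in Acacetin. Its groups did not overlap with Control in either comparison. The log2 fold change of OGD against Control was -0.71 ± 0.19 (edgeR adjusted p = 0.0134), and -0.60 without OGD 2 and 3 (adjusted p = 0.0960). Gatb, a subunit of the amidotransferase that turns mitochondrial glutamyl-tRNA into glutaminyl-tRNA, fell too, from 53.2 ± 1.96 to 31.2 ± 4.22 CPM (SD, n = 4; log2 fold change -0.77, edgeR adjusted p = 0.00341). Gatc and Qrsl1, which encode other subunits of that enzyme, did not fall with it. Their log2 fold changes were 0.30 and 0.26, and neither was called (edgeR adjusted p = 0.141 and 0.266).

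Iars2 and Cars2 passed the test by a small margin. Iars2, the mitochondrial isoleucine enzyme, was at 25.8, 30.2, 25.9 and 38.1 CPM in Control, 17.3, 16.1, 18.4 and 25.5 in OGD, and 15.7, 21.9, 27.01 and 32.9 in Acacetin. OGD 4 nearly reached Control 1, and Acacetin overlapped both groups. Its log2 fold change in OGD against Control was -0.63 ± 0.22 (edgeR adjusted p = 0.0460), and exons of Rab3gap2 on the opposite strand cover 22.9% of its exon bases. Cars2, the mitochondrial cysteine enzyme, was at 25.6, 16.3, 24.2 and 16.5 CPM in Control, 32.5, 35.3, 27.5 and 25.2 in OGD, and 35.4, 33.4, 23.2 and 26.3 in Acacetin. Its Control libraries fell into a higher and a lower pair, and OGD 4 lay below Control 1. It had a log2 fold change of 0.55 ± 0.19 (edgeR adjusted p = 0.0465). Both calls were lost without OGD 2 and 3 (adjusted p = 0.340 for Iars2 and 0.177 for Cars2). Leaving out any 1 of Control 2, Control 4, OGD 1, OGD 2 and OGD 3 ended both as well, with adjusted p from 0.0903 to 0.171 for Iars2 and from 0.0528 to 0.146 for Cars2, and the call on Iars2 also ended without Control 1 (0.0550) or Control 3 (0.0527). With limma on log2 FPKM neither passed (0.173 and 0.139 for Iars2 and 0.251 and 0.238 for Cars2, with pseudocounts of 1 and 0.1), nor did they in edgeR with no filter on low counts (0.0547 and 0.0522). Cars2 also missed the threshold with DESeq2's size factors in edgeR (0.0588) and with the length trend removed (0.169), and Iars2 with ribosomal RNA genes left out (0.0504).

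**Figure D2:**
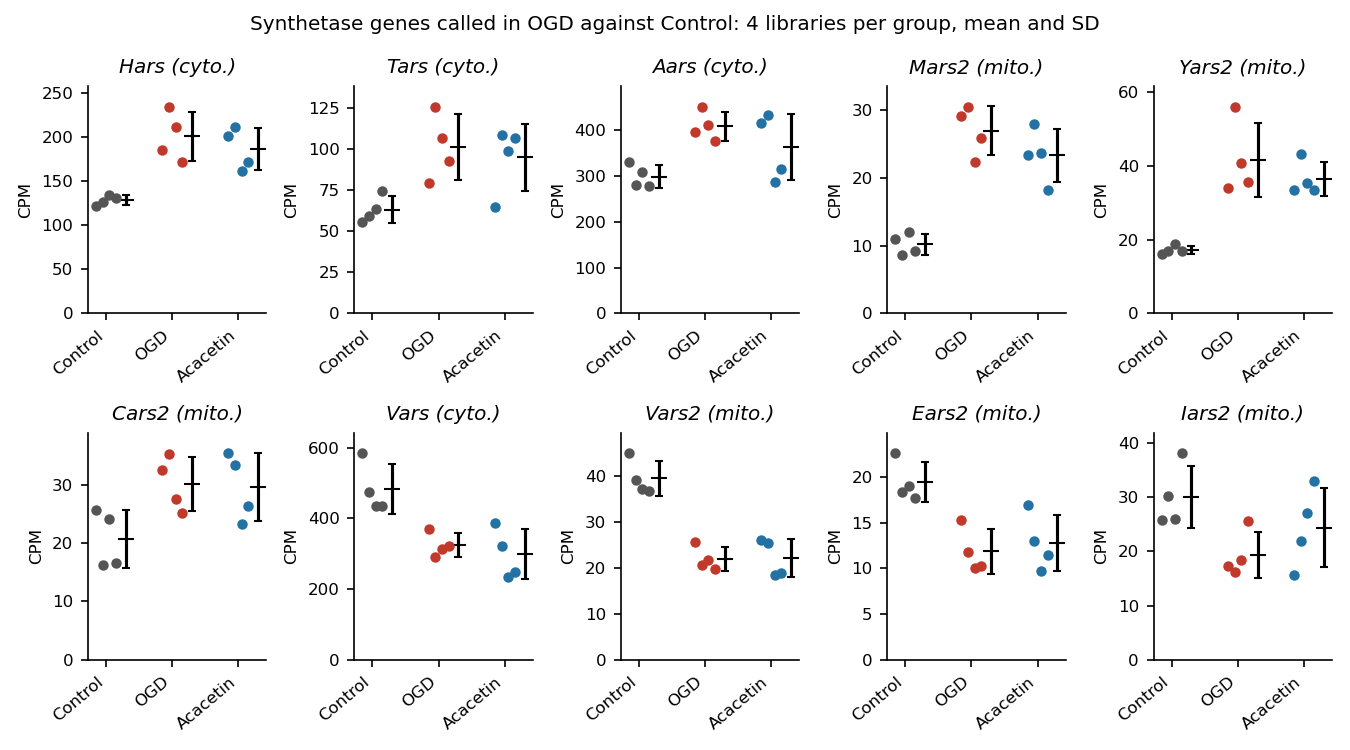
CPM of the 10 synthetase genes called in OGD against Control, with 1 panel per gene, 4 libraries per group as points (grey Control, red OGD, blue Acacetin) and the group mean with its SD as a bar to the right; each axis starts at 0. The top row and the left panel of the bottom row hold the 6 genes that were higher in OGD and the others the 4 that were lower, and the Acacetin points of each gene overlap the OGD points.

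Just above the threshold stood Tars2, the mitochondrial threonine enzyme, with 133 ± 10.8 CPM in Control and 99.4 ± 10.2 in OGD (log2 fold change -0.42, edgeR adjusted p = 0.0521), and Fars2, the mitochondrial phenylalanine enzyme, with 53.2 ± 2.73 and 38.4 ± 6.80 CPM (log2 fold change -0.47, edgeR adjusted p = 0.0611; SD, n = 4). Tars2 passed in 12 and Fars2 in 11 of 21 alternatives. Both passed with DESeq2 (adjusted p = 0.00771 for Tars2 and 0.0177 for Fars2), with its size factors in edgeR (0.0232 and 0.0333), with no filter (0.0296 and 0.0361), with the replicate number as a block (0.0157 and 0.0184), with limma on log2(FPKM + 1) (0.0180 and 0.0150) and with ribosomal RNA genes left out (0.0136 and 0.0220). Counted by range instead of by test, 14 of the 36 genes (38.9%) had OGD libraries that did not overlap the Control libraries, against 36.0% of all tested genes. They were the called genes other than Cars2, with Cars, Sars, Wars, Fars2 and Tars2. When the trend with GC content was removed from each library, an alternative chosen after seeing the data, 16 of the 36 passed, 7 higher and 9 lower in OGD, where 36.3% of all tested genes were. The 10 genes above were all among the 16, and the 6 others were Farsa, higher, and Cars, Farsb, Sars, Fars2 and Tars2, lower. Without OGD 2 and 3, both rich in 18S, 4 genes were called: Hars, Mars2 and Yars2 higher and Vars2 lower, where 14.5% of all tested genes were. Whether 18S content or the GC trend has a part in the fold changes was not tested beyond these fits.

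The 8 synthetases that textbooks place in the multisynthetase complex (Dars, Eprs, Iars, Kars, Lars, Mars1, Qars and Rars) were singled out after their values had been seen. In OGD against Control, 0 of the 8 were called by edgeR and 0 had an unadjusted p under 0.05, and all 8 had libraries that overlapped between the groups. Of all tested genes 28.8% were called and 36.0% did not overlap, and since the 8 were picked by hand, nothing particular to the complex is read from these counts. The spread between libraries differed among them. Mars1 was at 133 ± 7.70 CPM in Control and 134 ± 3.68 in OGD, and Qars, the glutamine enzyme, at 434 ± 33.6 and 410 ± 54.1, whereas Dars, the aspartate enzyme, ran from 9.05 to 16.6 CPM within Control alone. A missed threshold does not show that they did not differ. Of the scaffold genes, Aimp2 rose from 76.4 ± 15.7 to 144 ± 28.2 CPM (log2 fold change 0.91 ± 0.21, edgeR adjusted p = 0.00503) and Eef1e1 from 78.3 ± 7.97 to 114 ± 27.7 (0.54 ± 0.16, edgeR adjusted p = 0.0227), while Aimp1 was at 87.4 ± 12.1 and 93.1 ± 25.0 (0.09 ± 0.19, edgeR adjusted p = 0.768; all SD with n = 4). Without OGD 2 and 3 the calls on Aimp2 and Eef1e1 were lost (0.69 and 0.26, adjusted p = 0.0636 and 0.208), and that on Eef1e1 also without Control 1 (0.0733) or OGD 2 (0.0817), with limma on log2 FPKM (0.138 and 0.141) and with the GC trend removed (0.159).

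The 2 genes of 1 amino acid were also compared by their ratio. The log2 ratio of mitochondrial to cytosolic CPM was taken within each library, which makes it free of library scaling. It was taken for the 13 amino acids with 1 gene of their own in each compartment among the 36 genes. Leucine was not paired because Lars2 had been left out. Fars2, Ears2 and Pars2, whose cytosolic counterparts are 2 subunits (Farsa and Farsb) or the joined enzyme Eprs, were not paired. In OGD against Control, 7 of the 13 ratios did not overlap between the groups, and each of these had p = 0.0286 in a two-sided exact permutation test, the smallest that 4 against 4 libraries allow. After Benjamini-Hochberg adjustment over the 13 pairs that became 0.0531, so none passed 0.05. With p bounded below at 0.0286, no pair could pass this adjustment on its own, whatever the size of its difference. Ratios of other gene pairs were not taken, so no background share stands beside the 7 of 13. Of single tested genes, 36.0% did not overlap between the groups. The count is therefore not read as a result about these pairs. The ratio of Mars2 to Mars1 went from -3.71 ± 0.20 to -2.33 ± 0.21 (SD, n = 4 per group), a difference of 1.39. That of Yars2 to Yars went from -3.27 ± 0.14 to -2.03 ± 0.28, a difference of 1.23. In both the mitochondrial gene had risen while the cytosolic one was at about the same mean level in the 2 groups (Mars1 at 133 ± 7.70 and 134 ± 3.68 CPM, Yars at 165 ± 6.73 and 167 ± 8.70 CPM).

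The ratio of Cars2 to Cars was higher in OGD by 0.82, with Cars at 80.5 ± 4.96 CPM in Control and 67.6 ± 4.58 in OGD (SD, n = 4). The other 4 ratios of the 7 were lower. Threonine had the widest gap: the ratio of Tars2 to Tars was 1.40, 1.20, 1.01 and 0.72 in Control and 0.42, -0.24, -0.11 and -0.12 in OGD, so that the mitochondrial gene had more reads than the cytosolic one in every Control library and fewer in 3 of 4 OGD libraries. For isoleucine the difference was -0.64 (Iars2 to Iars), for histidine -0.60 (Hars2 to Hars) and for valine -0.29 (Vars2 to Vars). In the valine pair both genes had fallen. The 7 ratios differed in how often they kept an exact permutation p under 0.05 over 10 alternatives. Those of Mars2, Yars2 and Vars2 kept it in 9, that of Tars2 in 8, Cars2 in 7, Iars2 in 6 and Hars2 in 5. The ratios for alanine, arginine, asparagine, aspartate, serine and tryptophan overlapped between the groups, with exact permutation p from 0.0571 (Aars2 to Aars) to 0.943 (Nars2 to Nars). The genes of a pair also differ in GC content, as in 38.8% for Mars2 and 53.6% for Mars1, or 53.2% for Tars2 and 46.6% for Tars, and its part in the ratios was not tested.

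**Figure D3:**
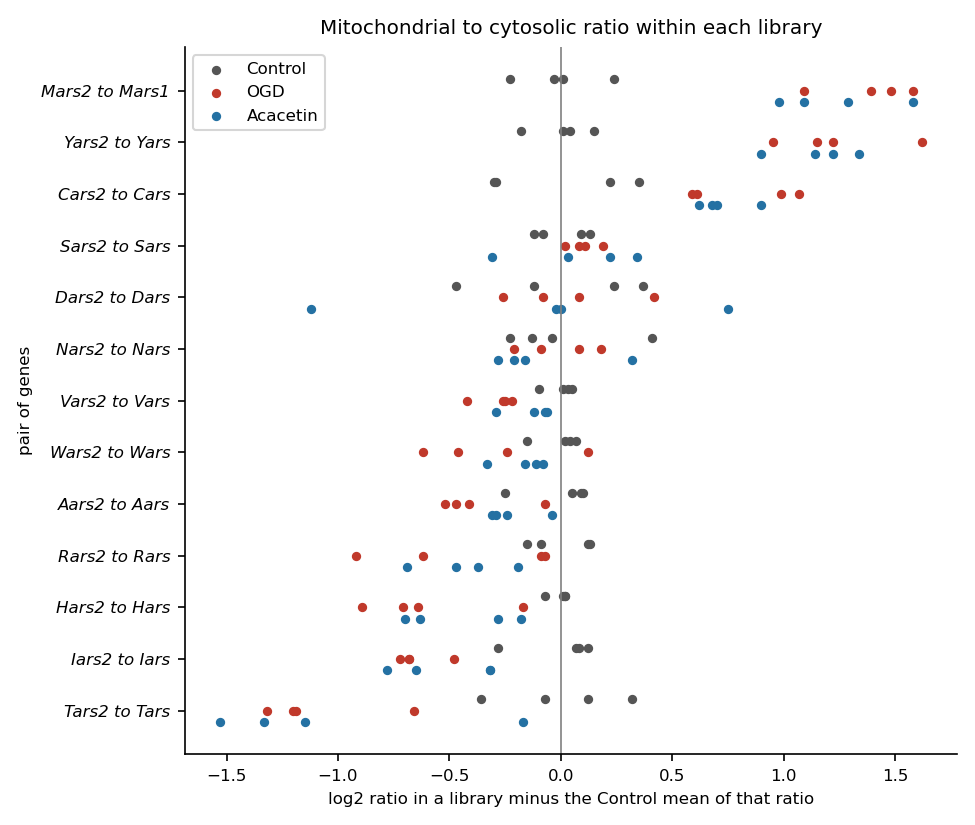
Log2 ratio of mitochondrial to cytosolic CPM for the 13 pairs of genes compared (vertical axis), as 1 point per library, minus the mean of the ratio in the 4 Control libraries (horizontal axis); Control is grey, OGD red and Acacetin blue. The Mars2, Yars2 and Cars2 ratios of OGD lie to the right of Control and the Tars2, Iars2, Hars2 and Vars2 ratios to the left, and the Tars2 ratio of 1 Acacetin library lies within the Control range.

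In Acacetin against OGD, the comparison that asks what the compound did after the injury, 0 of the 36 genes were called by edgeR, 0 by DESeq2 and 0 under the other alternatives run. Over all 13249 genes edgeR called 0 (0%), with 685 at an unadjusted p under 0.05, and DESeq2 called 37. None of the 36 genes had an unadjusted p under 0.05 in this comparison by edgeR, and 0 of them had Acacetin libraries clear of the OGD libraries, against 2.35% of all tested genes. The median log2 fold change was -0.01 over the cytosolic genes and 0.00 over the mitochondrial ones, beside -0.02 over all genes.

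The 2 genes with the smallest p were Eprs and Farsb. Eprs, the joined glutamate and proline enzyme, was at 16.7, 19.1, 17.7 and 29.1 CPM in Control, 18.9, 15.3, 18.1 and 26.02 in OGD, and 9.12, 21.3, 73.1 and 31.02 in Acacetin. Acacetin 3 was the highest and Acacetin 1 the lowest of the 12 libraries. Its log2 fold change of 0.78 ± 0.44 (edgeR adjusted p = 0.829) dropped to 0.07 without Acacetin 3 and was 1.09 without Acacetin 1 (adjusted p = 1.00 and 0.175). Farsb, the β subunit of the cytosolic phenylalanine enzyme, was at 41.5, 46.1, 49.2 and 69.2 CPM in Control, 27.7, 34.5, 35.1 and 48.4 in OGD, and 23.9, 42.1, 63.3 and 75.7 in Acacetin. Its Acacetin libraries spread across the ranges of both other groups. The log2 fold change was 0.49 ± 0.29 (edgeR adjusted p = 0.829), between 0.25 without Acacetin 4 and 0.73 without Acacetin 1. The α subunit, Farsa, was at 246 ± 30.1 CPM in OGD and 220 ± 61.9 in Acacetin (SD, n = 4).

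The spread within Acacetin had a pattern of its own. The highest library exceeded the lowest by more than 2-fold for 9 of the 36 genes in Acacetin (Dars, Eprs, Farsb, Iars, Lars, Nars, Rars, Iars2 and Rars2), and for 0 in Control and 0 in OGD, where the widest were Dars at 1.84-fold and Farsb at 1.75-fold. In Acacetin, Eprs spanned 8.02-fold, Dars 5.23-fold and Lars 4.61-fold. The transcripts of these 9 genes had GC contents of 42.7% to 48.9%, below the median of 50.8% over the 36. Of the 18 genes under that median, 16 were higher in Acacetin 3 than in Acacetin 1, by a median log2 difference of 0.70, and of the 18 at or above it 0 were, with a median of -0.67. Over the 36 genes the Pearson correlation of GC content with this difference was -0.70, beside -0.63 over 13215 tested genes, and that of log2 length was 0.12. These correlations describe 2 libraries, whose genes share depth and preparation. Mars2 and Yars2 differed by only 0.02 and 0.08 between the 2 libraries.

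**Figure D4:**
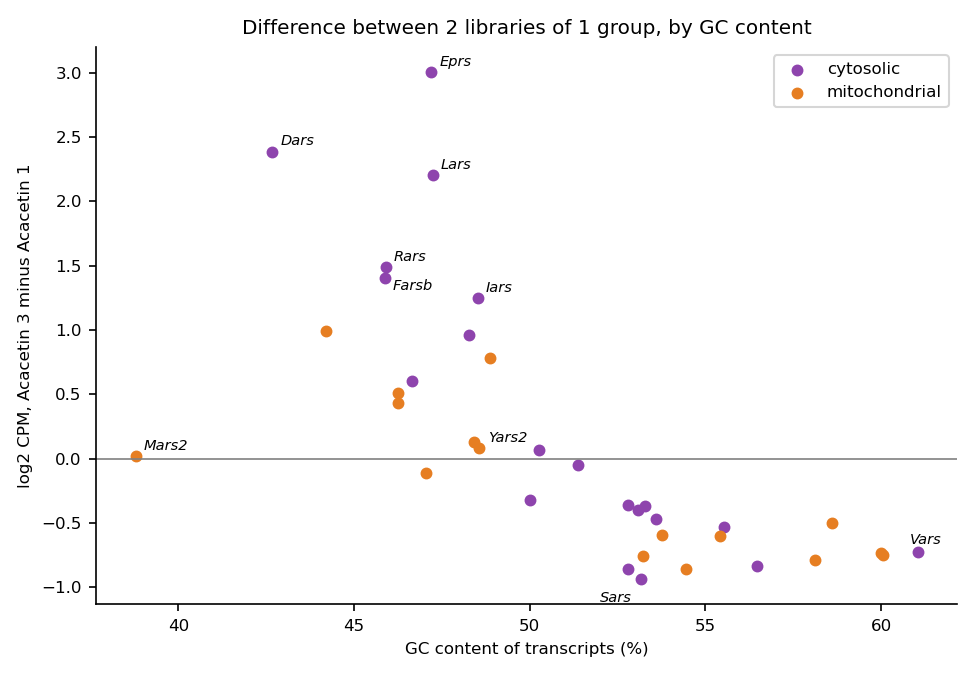
GC content of the transcripts of each synthetase gene (horizontal axis, percent) against the log2 CPM of Acacetin 3 minus that of Acacetin 1 (vertical axis), with cytosolic genes in purple and mitochondrial genes in orange. Genes under 50.8% GC lie mostly above the zero line, up to 3.00 for Eprs, and all genes at or above it lie below the line.

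Acacetin against Control shares its Control libraries with OGD against Control, so the values are given side by side and not as a second finding. Here 8 of the 36 genes (22.2%) were called, against 26.9% of all tested genes, 4 higher (14.0% of all genes were) and 4 lower (12.9% of all genes were). The higher genes were Mars2, with a log2 fold change of 1.19 ± 0.17 (1.41 in OGD against Control), Yars2 with 1.08 ± 0.16 (1.28), Tars with 0.59 ± 0.18 (0.68) and Hars with 0.54 ± 0.13 (0.65). The lower ones were Vars2 with -0.83 ± 0.15 (-0.85 in OGD against Control), Vars with -0.69 ± 0.17 (-0.57), Ears2 with -0.61 ± 0.19 (-0.71) and Tars2 with -0.45 ± 0.15 (-0.42). Their edgeR adjusted p ran from 0.000492 for Mars2 to 0.0415 for Tars2. The calls on Hars, Vars2 and Yars2 held in all 21 alternatives, Vars lost its call in 1 (limma on log2(FPKM + 1), adjusted p = 0.0532) and Mars2 in 1, the fit with the GC trend removed. Ears2, Tars and Tars2 lost theirs more often, in 8, 7 and 11 of 21. With limma on log2 FPKM all 3 missed the threshold (adjusted p of 0.162 and 0.195 for Ears2, 0.0669 and 0.0603 for Tars, and 0.151 and 0.172 for Tars2, with pseudocounts of 1 and 0.1). Leaving out Control 1, Control 2, Control 3, Acacetin 2 or Acacetin 4 ended each of the 3 calls, with adjusted p from 0.0567 to 0.0937 for Ears2, from 0.0610 to 0.0843 for Tars and from 0.0661 to 0.112 for Tars2. Without Acacetin 3 those on Ears2 (0.0762) and Tars2 (0.102) ended too. Tars2 also missed the call with only the 8 libraries compared (0.0797), with the length trend removed (0.111) and where a log2 fold change of at least 0.5 was asked for. Aars (0.28 ± 0.15), Cars2 (0.52 ± 0.19) and Iars2 (-0.30 ± 0.22) did not pass, with edgeR adjusted p of 0.175, 0.0595 and 0.328. With the GC trend removed Aars (adjusted p = 0.00491) and Cars2 (0.00320) passed, and with the length trend removed Iars2 did (0.0145). Cars2 passed in 8 of 21 alternatives, among them the replicate block (0.0319) and DESeq2 (0.0381). The difference between 2 such comparisons is Acacetin against OGD, where none of these genes was called.

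The Acacetin libraries did not overlap the Control libraries for 6 of the 36 genes (16.7%), Hars, Vars, Ears2, Mars2, Vars2 and Yars2, against 25.7% of all tested genes. The median log2 fold change was 0.15 over the cytosolic genes, 0.00 over the mitochondrial genes and 0.08 over all genes. With the GC trend removed, 12 of the 36 were called, 6 in each direction, where 32.9% of all tested genes were, and Mars2 then missed the threshold with a log2 fold change of 1.00 (edgeR adjusted p = 0.0780). Without Acacetin 1, 15 were called, 8 higher and 7 lower, and the higher ones then included Eprs, Lars, Nars and Rars. That is 41.7% of the 36, beside 43.1% of all tested genes in the same fit. Without Control 2, Control 3, Acacetin 2 or Acacetin 4, 5 (13.9%) were called in each case, beside 17.6% (without Control 2) to 21.1% (without Control 3) of all tested genes. In these fits the count of synthetase genes moved in the same direction as that of all genes. It did not with the length trend removed, where 8 were still called beside 31.7% of all tested genes. Of the 13 ratios between the genes of a pair, 6 had the smallest possible exact permutation p of 0.0286 (adjusted 0.0619 over the 13): those of cysteine, histidine, isoleucine, methionine, arginine and tyrosine. This count has no background share over other gene pairs beside it either. In Acacetin against OGD 0 of the 13 did, with adjusted p of 0.960 to 1.00.

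**Figure D5:**
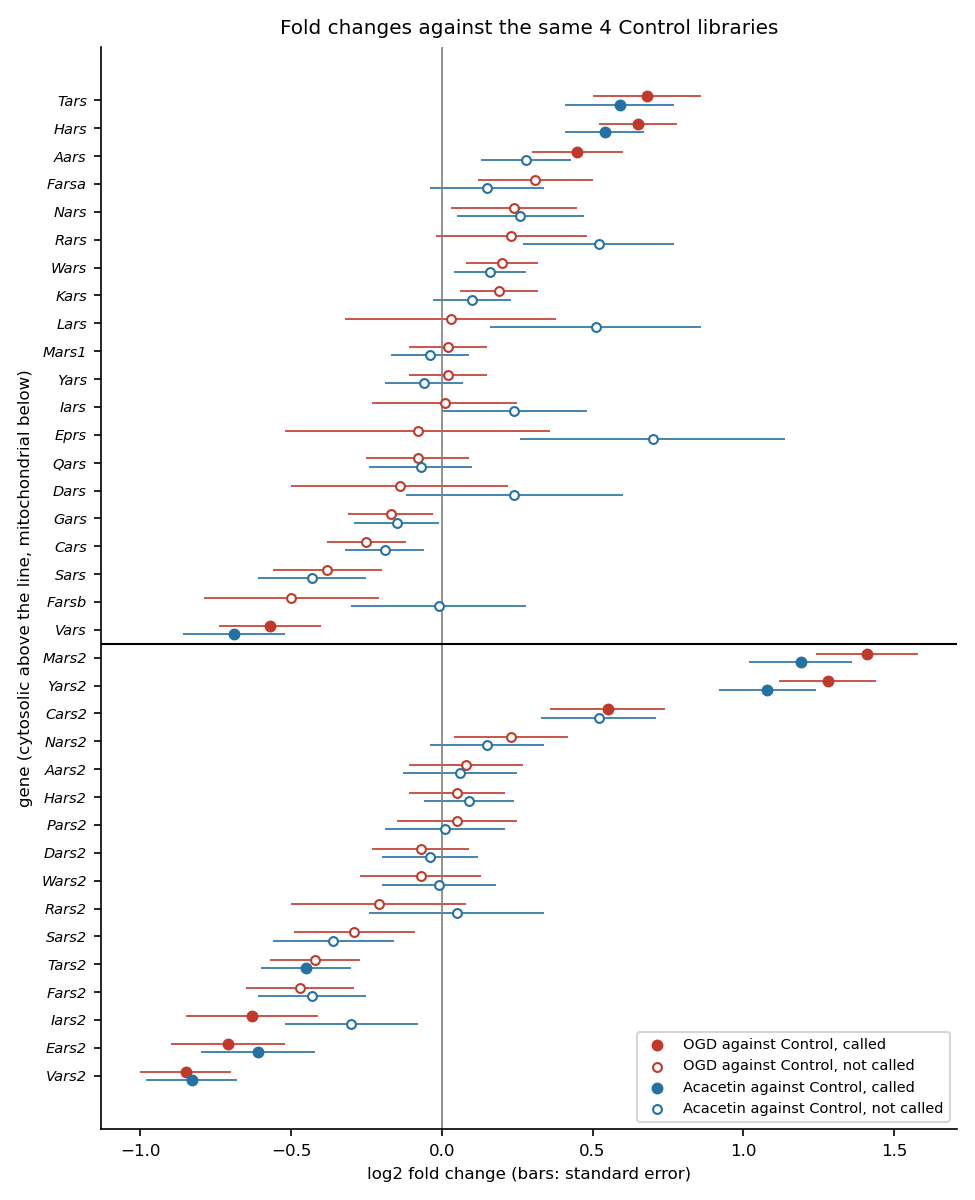
Log2 fold change (horizontal axis) of each synthetase gene (vertical axis) in OGD against Control (red) and Acacetin against Control (blue), with the standard error as a bar; filled points passed the edgeR test at an adjusted p of 0.05 and open points did not. Both comparisons use the same 4 Control libraries, and Mars2 and Yars2 stand farthest to the right and Vars2 farthest to the left.

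Other genes that make or use charged tRNA were described by lists, with the same test and over all genes. Of 23 genes of tRNA processing and modification, 9 rose in OGD against Control (39.1%, beside 16.2% of all tested genes), 3 fell (13.0%, beside 12.6%) and 11 were not called, with a median log2 fold change of 0.48 beside 0.03 over all tested genes. Trmt61a and Trmt6, which together form a tRNA adenosine methyltransferase, rose from 18.1 ± 3.20 to 48.7 ± 5.71 CPM and from 12.6 ± 2.21 to 36.3 ± 8.21 (log2 fold changes 1.43 and 1.53, edgeR adjusted p = 0.000194 and 0.000267). Pop1, a subunit of the RNase P that trims tRNA ends, rose from 26.1 ± 2.24 to 49.0 ± 7.38 CPM (0.91, edgeR adjusted p = 0.00158; SD, n = 4 throughout). Of 13 accessory genes of charging, 4 rose (30.8%, beside 16.2% of all tested genes), 3 fell (23.1%, beside 12.6%) and 6 were not called (median 0.30). Besides Mtfmt and Gatb these included Sephs2, which makes the selenium donor for selenocysteine, at 98.6 ± 14.0 CPM in Control and 159 ± 17.3 in OGD (0.69, edgeR adjusted p = 0.00233).

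Of the amino acid response genes, 28 of the 29 written were tested. Of these, 8 rose (28.6%, beside 16.2% of all tested genes), 3 fell (10.7%, beside 12.6%) and 17 were not called (median 0.17). Among those not called was Atf4 itself (log2 fold change -0.12, edgeR adjusted p = 0.615). Ddit3, which encodes the stress factor CHOP, fell from 60.2 ± 24.4 to 16.2 ± 4.20 CPM (SD, n = 4; log2 fold change -1.90, edgeR adjusted p = 0.000319). Stc2, a secreted glycoprotein, and Slc1a5, a glutamine transporter, rose by 1.20 and 0.74 (edgeR adjusted p = 0.000995 and 0.00103). Ddit3 and Mars1 lie on opposite strands and share 68 exon bases, 1.99% of those of Mars1. Of the 5 synthetase genes with the composite core in the promoter window, Tars and Aars were called higher, as 16.2% of all tested genes were. Gars (247 ± 19.8 CPM in Control, 219 ± 25.6 in OGD), Iars (33.3 ± 5.83 and 33.5 ± 8.19) and Yars were not called. The calls on Tars and Aars were lost without OGD 2 and 3 (edgeR adjusted p = 0.183 and 0.131). A link between the core and the calls was not tested.

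Of all 13249 tested genes, 16.2% were higher and 12.6% lower in OGD, the shares beside which the counts of the 3 short lists of at most 10 tested genes stand. Of 7 genes of eIF2 and its kinases, 2 rose, Eif2ak1 by 0.70 and Eif2s1 by 0.63 (edgeR adjusted p = 0.00230 and 0.0256), and 5 were not called (median 0.29). Eif2ak4, which encodes Gcn2, was among these 5 (log2 fold change -0.31, edgeR adjusted p = 0.519). Of 8 cytosolic elongation and termination genes, 0 rose by edgeR and only the elongation factor Eef2 fell, from 4691 ± 477 to 3017 ± 347 CPM (-0.64, edgeR adjusted p = 0.0386; median of the list 0.08). Of 10 tested mitochondrial translation factors, 1 rose and 2 fell (median -0.30): the elongation factor Gfm1 rose by 0.47, and the recycling factors Mrrf and Gfm2 had log2 fold changes of -0.45 and -0.43 (edgeR adjusted p = 0.0274, 0.0214 and 0.0331). Of the 17 called genes of the 7 lists that are named for this comparison, Sephs2, Gatb, Mtfmt, Trmt61a, Trmt6, Ddit3 and Stc2 kept their call in all 21 alternatives, which were applied to them after seeing the data. Pop1, Slc1a5 and Eif2ak1 lost it only with limma on log2 FPKM. Without OGD 2 and 3 the calls on Eif2s1, Eef2, Gfm1 and Gfm2 were lost (adjusted p = 0.327, 0.127, 0.135 and 0.0967). With 1 library left out, Eif2s1 lost its call without Control 1, Control 2, Control 4, OGD 2 or OGD 3, and Eef2 without Control 1, Control 2, Control 3, OGD 2 or OGD 4. Mrrf lost its call without Control 2, Control 3, OGD 1 or OGD 4, Gfm2 without Control 2, Control 3, Control 4, OGD 1 or OGD 2, and Gfm1 without any 1 library but OGD 1. In all, Eif2s1 lost its call in 9 of 21 alternatives, Eef2 in 6, Mrrf in 5, Gfm1 in 12 and Gfm2 in 11. In Acacetin against OGD, edgeR called 0 genes in each of these 7 lists. In Acacetin against Control the tRNA processing list had 8 higher (34.8%), 2 lower (8.7%) and 13 not called, and the amino acid response list 8 higher (28.6%), 4 lower (14.3%) and 16 not called, beside 14.0% higher and 12.9% lower of all tested genes, Ddit3 among the lower at 9.88 ± 2.22 CPM (log2 fold change -2.61, edgeR adjusted p = 0.000133).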

How the data were processed

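RNA of 12 BV2 libraries (Control, OGD and Acacetin, 4 each) was sequenced as stranded mRNA libraries, per the labels' protocols. Build GRCm39 and the tools HISAT2, bcl2fastq and DESeq2 stand in the submitters' processing notes, without versions or roles. The counting tool, its annotation and its use of strand are not given in the sources used here. Whole-number reads per gene make up the first deposited table, the authors' raw counts for 24934 genes, and the authors' deposited FPKM table scales counts by 1 length per gene and 1 depth per library for 24728 genes. All columns matched a library by name (0 unmatched). Depth was 16427886 to 32693066 reads per library, and without molecular identifiers these reads are not independent molecules. Replicates differed beyond sampling noise in all groups (chi-square per degree of freedom 23.4 to 609).

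Counts were scaled by TMM and filtered with filterByExpr (minimum count 10, minimum total 15). All 12 libraries entered 1 quasi-likelihood fit in edgeR 4.0.16 (R 4.3.3), with two-sided tests adjusted by Benjamini-Hochberg within each of 3 comparisons and called under 0.05. The script was tested on simulated data. Alternatives were DESeq2 1.42.0, its size factors in edgeR, no filter, only the 8 libraries compared, a replicate block, limma 3.58.1 on log2 of the deposited FPKM with a pseudocount of 1 or 0.1, a log2 fold change of at least 0.5, ribosomal RNA genes left out, a lowess trend (span 0.5) with gene length removed, OGD 2 and 3 or Acacetin 1 and 3 left out, and each library left out in turn. Removal of the trend with GC content, the settings for pair ratios and the alternatives for list genes were chosen after seeing the data. GC content came from GENCODE M21 transcripts and promoters from RefSeq, both of build GRCm38, matched by identifier or symbol. Coordinates are of that build and no others are given.

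The genes, lists and tests were chosen with earlier results of these data known. Values in every library are given for the genes called in OGD against Control and for the 2 with the smallest p in Acacetin against OGD. At most 3 genes with the smallest p are named per list, and besides these Gatc, Qrsl1, Atf4, Eif2ak4, Mtif2 and Mtif3. Of 124 list and marker genes, 118 were in the table.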

Additional observations from a re-analysis of the deposited data

Results flagged for a closer look

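Wars, the cytosolic tryptophan enzyme, had 1 OGD library apart from the other 3. OGD 4 stood at 158 CPM and the others at 146 to 148, and the gap was 0.878 of the whole range of the group, above Dixon's limit of 0.829 for 4 values. It was 1 of 108 groups of 4 libraries checked, of which chance flags about 1 in 20. Wars was not called in any of the 3 comparisons by edgeR.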

How the results depend on the processing

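In OGD against Control, the 10 synthetase genes called became 16 with the GC trend removed and 4 without OGD 2 and 3 (28.8%, 36.3% and 14.5% of all tested genes), and ran from 6 (without Control 2 or without OGD 2) to 10 when 1 library was left out (20.8% to 26.0% of all). In Acacetin against Control, the 8 called became 4 and 5 with limma on log2 FPKM (pseudocounts 1 and 0.1; 26.9%, 18.4% and 18.2% of all tested genes), and ran from 5 to 15 with 1 library left out (17.6% to 43.1% of all, highest without Acacetin 1 in both). Without Acacetin 1 and 3, 13 were called in OGD against Control (37.2% of all tested genes), with Fars2, Sars and Tars2 added. The same fit called 10 in Acacetin against Control (28.9% of all), with Rars and Sars added. In Acacetin against OGD the count was 0 in every alternative run. The labels tie the replicate numbers to no shared culture or day, and not every same-numbered pair correlated above 0.1, so the libraries were not taken as paired: deviations of same-numbered libraries correlated at -0.29 to 0.51 (mean 0.18, 12 combinations) and those of others at -0.70 to 0.69 (mean -0.06, 36 combinations). A library correlated best with its own number in 11 of 24 cases, where 6 would match if numbers played no part, a hint from the data that same-numbered libraries share something. With that number as a replicate block, 13, 11 and 0 synthetase genes were called in OGD against Control, Acacetin against Control and Acacetin against OGD, and 4572, 4279 and 2 of all genes (3813, 3559 and 0 without it). No synthetase gene changed direction in a comparison in which it was called. Of those not called, 11 of 26 did under at least 1 alternative in OGD against Control (all with a log2 fold change of at most 0.14 in size, among them Iars, Lars, Mars1, Qars and Yars), 14 of 28 in Acacetin against Control and 29 of 36 in Acacetin against OGD. None of the 17 called list genes that are named did. In OGD against Control, 189 of 252 values of the 12 synthetase genes called or just above the threshold there stayed on their side of the threshold, 40 lost the call and 23 gained it, and in Acacetin against Control 210, 28 and 14 of 252 did. Hars, Mars2, Yars2 and Vars2 kept their OGD against Control call in all 21 alternatives. Of all genes called in OGD against Control, 56.3% were higher with edgeR, and 32.2% and 33.7% with limma on FPKM (pseudocounts 1 and 0.1), where the median log2 fold change of all genes was -0.04 and -0.11 and that of the cytosolic genes -0.11 and -0.13. The cause was not tested. Depth limits only the lowest members, such as Rars2 at 3.15 CPM in Control.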
